A study of Mus musculus with 26 samples.

Results

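The mitochondrial ribosomal protein genes are the nuclear genes named Mrpl or Mrps followed by a number. They were chosen by that pattern in the gene symbol, with symbols of annotated pseudogenes left out, which gave 77 of the 46517 gene symbols measured. Of these, 48 carry an Mrpl symbol, for the large subunit of the mitochondrial ribosome, and 29 an Mrps symbol, for the small subunit. RNA was sequenced from thymocytes of mice of 3 T cell receptor (TCR) transgenic lines, each of which carries a rearranged, MHC class I-restricted TCR: TG6, of genotype TG6tg H2b/d on a cross of C57/BL6 with B6.C-H2d/bByJ, F5, which is F5tg Rag1KO on C57/BL6, and OT-1, which is OT-1tg Rag2KO on C57/BL6. The TG6 TCR has low self-reactivity, the F5 TCR intermediate and the OT-1 TCR high self-reactivity. From each line, CD4+CD8+ cells were sorted as CXCR4+CCR7- for the early stage of positive selection or as CXCR4-CCR7+ for its late stage, and CD4-CD8+ cells that were CXCR4-CCR7+ are called mature CD8SP, with 3 libraries per group and 2 for TG6 at late positive selection. F5 and OT-1 mice lacked a Rag gene and TG6 mice did not, so that TG6 cells can also rearrange their own TCR genes, and the TCR, the Rag genotype and the MHC background cannot be told apart in comparisons with TG6. Ages of the individual mice are not given in the sources used here.

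The mitochondrial ribosome (mitoribosome) translates the few mRNAs encoded in mitochondrial DNA, all of which specify core subunits of the respiratory chain and of the ATP synthase. Its rRNAs are transcribed inside the organelle, but all of its proteins are encoded in the nucleus, made in the cytosol and imported, so that assembly joins products of both genomes. Many of its proteins descend from bacterial ribosomal proteins and the rest were added in the mitochondrial lineage. T cells depend on mitochondrial translation for respiration when they grow and divide.

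The 26 libraries summed to 16134786 to 18944173 normalized counts, the unit of all levels below, which are read counts scaled between libraries by the authors. Cd4 transcripts lay at 1455 to 22731 normalized counts in the CD4+CD8+ populations and at 62.8 to 461 in mature CD8SP cells, and Ccr7 lay at 112 to 863 in early and at 2698 or more in late and mature libraries of every line. Libraries of a group differed in the summed level of 20 cell division genes, such as Mki67 and Top2a. In TG6 mature CD8SP cells this sum was 22761, 24945 and 88589 normalized counts in replicates 1 to 3, so that replicate 3 stood apart. Replicate 2 was the highest of the F5 mature CD8SP libraries (24653, 73786 and 39902) and of the F5 late libraries (1121, 11553 and 964). The members' own sum was 27816 to 49198. Of the genes that mark other cells, 5 myeloid genes summed to 2.89 to 184, with Csf1r at 0 to 42.8, 5 erythroid genes to 31.5 to 1270 and 5 thymic epithelial genes to 24.5 to 76.0. At early positive selection the myeloid sum was 42.2 to 184 in OT-1, 2.89 to 40.4 in F5 and 5.89 to 54.6 in TG6, and of the 4 myeloid genes tested 3 were called higher in OT-1 against TG6 and 2 against F5. The 5 genes of NK and γδ T cells summed to 1566 to 3165 in TG6 and to 5282 to 10000 in F5 and OT-1 libraries. The part of these cell types in the results was not tested.

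All 77 genes passed the filter on low values (at least 10 normalized counts in at least 2 libraries). In the GENCODE vM21 annotation of GRCm38 they lay on 17 chromosomes, at most 10 of them on chromosome 11, with a median exon length of 2255 bases against 4463 for the protein-coding genes tested. Per kilobase of annotated exon, the mean level over all libraries ran from 14.6 to 731 normalized counts with a median of 173, a span that depends on the annotated length. The 3 highest per kilobase were Mrpl24 (731), Mrpl18 (578) and Mrpl34 (553), and the 3 lowest were Mrpl23 (14.6), Mrpl17 (36.1) and Mrps10 (43.1). Mrpl24, the homologue of a bacterial large subunit protein that binds rRNA early in assembly, lies on chromosome 3 at 87919506 to 87923672. Exons of 32 members overlap those of another annotated gene, and a strand setting for the counting is not given in the sources used here, so reads in such overlaps cannot be assigned with certainty. A protein-coding gene started on the opposite strand within 1000 bases of the start of 33 members (42.9%), against 16.4% of the 12426 protein-coding genes tested. Of 29 such neighbours that were tested and are not themselves members, 5 were called higher and 5 lower in OT-1 than in TG6 at the early stage (15.4% and 12.4% of all genes tested), the median log2 fold change being 0.04. The members beside them had a median of 0.41, and 13 of the 29 were called higher.

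Promoters of the 3 members with the largest fold change between OT-1 and TG6 at early positive selection are shown because these genes lead the comparison. Each run is the 250 bases before the RefSeq transcription start in GRCm38.p6, read 5′ to 3′ on the gene's strand, with searched motifs in capitals. Mrps18c and Mrps7 encode small subunit proteins and Mrpl17 a large subunit protein, each with a bacterial homologue. GENCODE vM21 starts Mrps18c at 100798627, Mrps7 at 115603925 and Mrpl17 at 105811099. By that annotation part of each run lies inside the gene, and most of the run shown for Mrps7 does.

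Mrps18c, chr5:100798509-100798758, plus strand: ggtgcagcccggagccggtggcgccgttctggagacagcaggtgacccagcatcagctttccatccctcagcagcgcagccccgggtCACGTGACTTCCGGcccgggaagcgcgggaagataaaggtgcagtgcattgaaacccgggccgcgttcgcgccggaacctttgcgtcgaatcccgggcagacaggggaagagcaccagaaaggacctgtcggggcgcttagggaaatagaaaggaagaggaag

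Mrps7, chr11:115603890-115604139, plus strand: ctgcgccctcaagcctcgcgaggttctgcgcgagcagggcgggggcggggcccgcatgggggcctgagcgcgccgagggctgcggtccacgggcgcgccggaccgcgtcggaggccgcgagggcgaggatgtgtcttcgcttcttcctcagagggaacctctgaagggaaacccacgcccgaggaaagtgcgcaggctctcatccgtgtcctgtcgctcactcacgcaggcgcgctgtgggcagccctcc

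Mrpl17, chr7:105811088-105811337, minus strand: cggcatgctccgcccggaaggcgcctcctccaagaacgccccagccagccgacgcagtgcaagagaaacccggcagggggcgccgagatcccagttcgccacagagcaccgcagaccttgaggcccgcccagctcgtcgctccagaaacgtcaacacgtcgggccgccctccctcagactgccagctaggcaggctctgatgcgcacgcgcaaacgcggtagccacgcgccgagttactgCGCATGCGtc

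The capitals mark an E-box (CACGTG) directly followed by the reverse complement of an ETS core (CCGGAAGT) in Mrps18c and an NRF-1 core (CGCATGCG) in Mrpl17, while the bases shown for Mrps7 held none of the letters searched. NRF-1, ETS factors and YY1 are known regulators of nuclear genes for mitochondrial proteins. Over windows of 300 bases, which add 50 bases after the start and in Mrps7 take in a YY1 core, 68 of the 77 members matched 74 promoters. On either strand, the NRF-1 core was in 9.46% of these against 1.87% of all 32851 promoters, the ETS core in 16.2% against 3.89%, and the YY1 core (AAGATGGC) in 16.2% against 2.75%. Any of these 3 cores was in 39.2% of member promoters against 8.07% of all. The E-box was in 7 promoters (9.46%, against 7.15% of all), which belong to 5 members, since 3 of them are overlapping promoters of Mrpl2 that share a site. A TATA box (TATAAA) was in 6.76% against 13.6%. No share was taken over the promoters of tested genes alone, so whether these differences are particular to the members was not tested. A match describes the letters of the window and does not show binding.

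As a share of all normalized counts, the 77 genes together made up 0.169 to 0.272% of a library. In OT-1 the share was 0.229% ± 0.00869 (SD, n = 3) at the early stage, 0.195% ± 0.00556 (SD, n = 3) at the late stage and 0.244% ± 0.00662 (SD, n = 3) in mature CD8SP cells. In TG6 it was 0.200% ± 0.0124 (SD, n = 3) at the early stage, 0.176% ± 0.00275 (SD, n = 2) at the late stage and 0.226% ± 0.0402 (SD, n = 3) in mature cells. For F5 the early value was 0.218% ± 0.00358 (SD, n = 3), the late value 0.174% ± 0.00944 (SD, n = 3) and the mature value 0.216% ± 0.0241 (SD, n = 3). Each line was thus lowest at late positive selection, and every OT-1 library stood above every TG6 library at early and at late positive selection. The mature groups overlapped, because TG6 replicate 3 held the highest share of all libraries (0.272%) while replicates 1 and 2 held 0.207% and 0.199%. That library was the highest of its group in 72 of the 77 genes (40.8% of all genes tested). F5 mature CD8SP replicate 2 was the highest of its group in 63 members, TG6 early replicate 3 in 62 and F5 late replicate 1 in 55 (35.6, 40.3 and 37.8% of all genes). In bulk samples, fewer cells of a type and less RNA per cell cannot be told apart.

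**Figure D1:**
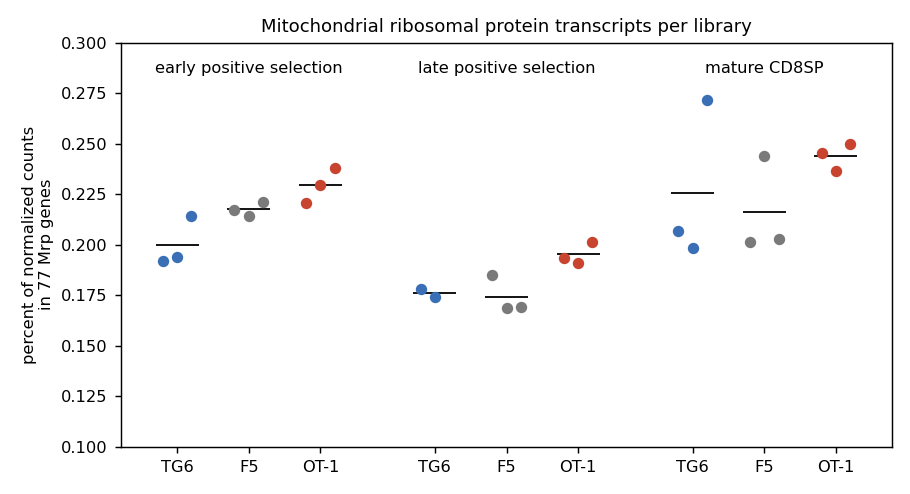
Percent of all normalized counts that fall in the 77 mitochondrial ribosomal protein genes (y axis, not starting at 0) in each of the 26 libraries, by line and stage (x axis). Points are libraries and black bars group means. OT-1 lies above TG6 at the early and late stages, all 3 lines are lowest at the late stage, and 1 TG6 mature library stands at 0.272%.

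The cell division genes were lowest at the late stage too, where libraries had 964 to 11553 normalized counts in the cell division list and member shares of 0.169 to 0.202%. The other stages ran less alike: TG6 mature replicates 1 and 2 had division sums of 22761 and 24945, below every early TG6 library, but member shares of 0.207% and 0.199%, within the early TG6 range of 0.192 to 0.214%. In mature CD8SP cells of TG6 and F5, the library with the highest division sum also had the highest member share, namely TG6 replicate 3 with 88589 counts and 0.272%, and F5 replicate 2 with 73786 counts and 0.244%. At late positive selection in F5 it was the reverse, with 11553 counts and 0.169% in replicate 2 and 1121 counts and 0.185% in replicate 1. OT-1 mature libraries lay at 94530 to 106587 counts and 0.237 to 0.250%. At early positive selection F5 and OT-1 overlapped in the division list (91981 to 117969 and 86258 to 126152 counts), whereas TG6 was at 60789 to 65703. The part of cell division in the differences below was not tested.

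**Figure D2:**
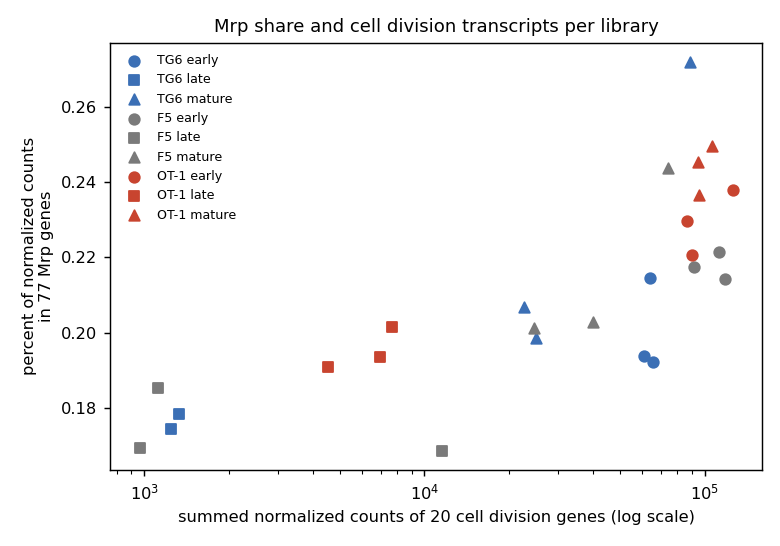
Percent of normalized counts in the 77 members (y axis, not starting at 0) against the summed normalized counts of 20 cell division genes (x axis, log scale) in 26 libraries. Colour gives the line and symbol the stage, and late libraries (squares) lie to the left at 0.169 to 0.202%.

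OT-1 against TG6 compares thymocytes of high and low self-reactivity at a given stage, from lines that also differ in Rag genotype and MHC background. At early positive selection, 28 of the 77 members were called higher in OT-1 (36.4%), against 15.4% of all 16372 genes tested, and 1 was called lower (1.30%), against 12.4%. A gene was called when limma's adjusted p on log2(normalized count + 1) was under 0.05, adjusted over all genes tested. The median log2 fold change of the members was 0.38, and 72 members had a positive value (93.5%, against 49.6% of all genes). The 3 libraries of each line did not overlap for 46 members higher in OT-1 (25.1% of all genes) and 1 lower (21.6%). Both subunits took part: 17 of 50 genes for large subunit proteins and 10 of 26 for small subunit proteins were called higher, each with a median of 0.38. By the standard protein names, 17 of 45 members named for a bacterial homologue were called higher (median 0.40) and 10 of 30 with a mitochondria-specific name (median 0.32), among which those names place Mrps18a and Mrps18b although both belong to the bacterial S18 family.

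The genes used to sort the cells also differed at the early stage. Ccr7, a receptor gained on maturation, had 648 to 863 normalized counts in OT-1 and 112 to 199 in TG6 (log2 fold change 2.43, SE 0.35, limma's adjusted p = 1.8e-05). The other 4 sort markers were called lower in OT-1, among them Cd4 (log2 fold change −1.46, SE 0.50, limma's adjusted p = 0.0319) and Cxcr4 (log2 fold change −1.41, SE 0.43, limma's adjusted p = 0.0176). Of 6 thymocyte identity genes, 3 were called lower and none higher, led by the recombinase gene Rag1 (log2 fold change −3.34, SE 0.88, limma's adjusted p = 0.00698). Cd79b, a component of the B cell receptor, was also lower in OT-1 (log2 fold change −1.03, SE 0.22, limma's adjusted p = 0.00169). The part of these differences in the members' result was not tested.

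Mrps18c, a small subunit protein of the bacterial S18 family, had 238, 267 and 312 normalized counts in TG6 and 424, 535 and 440 in OT-1 at this stage. The groups did not overlap, and OT-1 was higher by 0.77 on the log2 scale (standard error, SE, 0.21, limma's adjusted p = 0.00992). For Mrps7, homologue of a small subunit head protein, the TG6 libraries held 331, 313 and 365 and the OT-1 libraries 551, 561 and 572. That is a change of 0.74 on the log2 scale (SE 0.15, limma's adjusted p = 0.000822), with OT-1 above TG6 in every library. Mrpl17, a large subunit protein, had 162, 151 and 237 in TG6 and 301, 283 and 319 in OT-1 (log2 fold change 0.74, SE 0.20, limma's adjusted p = 0.00978). The groups of Mrpl17 did not overlap either, with TG6 replicate 3 closest to OT-1. The exception was Mrpl24, at 1726, 1810 and 2050 in TG6 and 1296, 1399 and 1200 in OT-1, a change of −0.52 on the log2 scale (SE 0.09, limma's adjusted p = 0.000153). Every OT-1 library was below every TG6 library in Mrpl24, the member with the highest level per kilobase. Without TG6 early replicate 1 or 2, 16 and 14 members were called higher (11.8% and 11.5% of all genes), and 16 without OT-1 early replicate 2 or 3 (11.1% and 13.4%). With equal library totals, 16 were, the median over all genes moved to −0.11 and that of the members to 0.27, and 11.8% of all genes were called higher and 17.1% lower.

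At late positive selection, 17 members were called higher in OT-1 than in TG6 (22.1%; 9.34% of all genes) and 2 lower (2.60%; 6.21% of all genes). The median log2 fold change was 0.33, with 68 of 77 members positive, and the groups did not overlap for 49 members higher in OT-1 (27.8% of all genes) and 3 lower (24.2%). Mrpl17 had 158 and 124 normalized counts in TG6 and 302, 291 and 295 in OT-1, where its libraries lay close together (log2 fold change 1.08, SE 0.23, limma's adjusted p = 0.00227). Mrps16, homologue of a bacterial small subunit protein, had 262 in both TG6 libraries and 507, 465 and 564 in OT-1. OT-1 was higher by 0.96 on the log2 scale (SE 0.15, limma's adjusted p = 0.00011), and the groups did not overlap. Mrps21, a small subunit protein, had 202 and 281 in TG6 and 416, 357 and 440 in OT-1 (log2 fold change 0.76, SE 0.24, limma's adjusted p = 0.0372). The 2 members called lower were Mrps6 and Mrpl49, a mitochondria-specific large subunit protein. Mrpl49 had 604 and 543 in TG6 and 371, 341 and 434 in OT-1 (log2 fold change −0.59, SE 0.19, limma's adjusted p = 0.0403). The late calls of Mrps21 and Mrpl49 were each kept in 7 of 13 alternatives, with limma's adjusted p up to 0.339 and 0.239. In all, 11 members (14.3%) were called higher at both the early and the late stage, against 6.16% of all genes.
In this comparison 11 of 20 cell division genes were called higher in OT-1 (median log2 fold change 2.41; sums of 4519 to 7634 against 1241 to 1333), as were 2 of 3 genes of NK and γδ T cells tested, while 2 of 5 sort markers and 2 of 6 thymocyte identity genes were called lower, and their part in the members' result was not tested. With 2 TG6 libraries, the count moved with single libraries: 4 and 3 members were called higher without TG6 late replicate 1 or 2 (5.19% and 3.90%, near the 4.91% and 4.37% of all genes), and 7 without OT-1 late replicate 1 or 3 (9.09%, against 6.44% and 7.74% of all genes). With equal library totals, 7 were called higher (6.64% of all genes, with 10.5% lower), and the members' median was 0.19 against −0.13 over all genes.

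**Figure D3:**
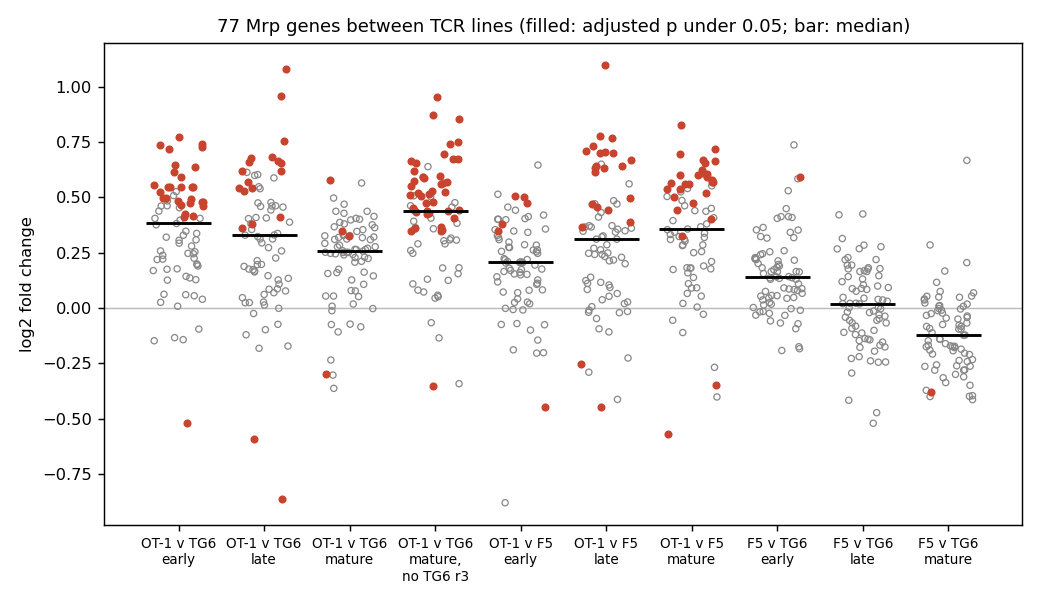
Log2 fold change (y axis) of each of the 77 members between lines at each stage (x axis), filled where limma's adjusted p was under 0.05, with a line at the median. OT-1 medians lie above 0 against both other lines, and the mature comparison with TG6 is shown with all libraries and without TG6 replicate 3 (r3).

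In mature CD8SP cells, 3 members were called higher in OT-1 than in TG6 (3.90%; 4.67% of all genes) and 1 lower (1.30%; 5.08% of all genes), although 67 members had a positive log2 fold change and the median was 0.26. The called members were Mrps36, Mrpl33 (log2 fold change 0.35, SE 0.11, limma's adjusted p = 0.0431) and Mrpl4 (log2 fold change 0.32, SE 0.10, limma's adjusted p = 0.0443), and Mrpl24 in the other direction. The groups did not overlap for 4 members higher in OT-1 (10.7% of all genes) and 1 lower (11.0%). The calls turned on TG6 replicate 3, which stood apart in the cell division list above and in other lists. It had 21298 normalized counts of Cd8a against 31943 and 30826 in replicates 1 and 2, and 461 of Cd4 against 129 and 77.1. Its mitochondrial rRNAs summed to 13985 against 4795 and 4719, its myeloid genes to 87.1 against 39.2 and 27.6, and its NK and γδ T cell genes to 3165 against 1566 and 1627. High mitochondrial rRNA sums were not particular to this library. TG6 early replicate 3 had 12980, against 6868 and 7363 in replicates 1 and 2. F5 replicate 1 had 11661, 11859 and 9935 at the 3 stages, against 3588 to 6328 in the other F5 libraries. OT-1 libraries had 11812 to 21389. The part of these lists in the calls was not tested. Without TG6 replicate 3, 41 members were called higher (53.2%; 15.0% of all genes) and 1 lower, with a median of 0.44. Without TG6 mature CD8SP replicate 1 or 2 no member was called, nor without OT-1 mature CD8SP replicate 1, 2 or 3 (2.02 to 3.22% of all genes called higher in these 5 fits), and with equal library totals 0 were called higher (3.11% of all genes, with 7.15% lower). Of the 41 members, 19 were also called higher at early positive selection (24.7% of members; 7.19% of all genes). Mrps18c had 258, 236 and 555 normalized counts in TG6 and 512, 476 and 450 in OT-1, so that replicate 3 of TG6 stood above all OT-1 libraries. Its log2 fold change was 0.56 with all libraries (SE 0.21, limma's adjusted p = 0.098) and 0.95 without that library (SE 0.15, limma's adjusted p = 8.47e-05). Mrpl12, the factor-binding stalk protein of the large subunit, showed the same arrangement, with 698, 756 and 1459 in TG6 and 1061, 1043 and 1174 in OT-1.

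Mrps36, Mrpl33 and Mrpl4 passed the test at all 3 stages (3.90% of members; 2.05% of all genes), each higher in OT-1 than in TG6, though in mature CD8SP cells the call of each was lost without any 1 of 5 libraries. Mrps36 carries a small subunit symbol, but its product is now placed in the oxoglutarate dehydrogenase complex of the citric acid cycle. It had 202, 216 and 241 normalized counts in TG6 and 296, 352 and 314 in OT-1 at the early stage, and 131 and 137 against 218, 208 and 222 at the late stage. In mature CD8SP cells the values were 212, 204 and 370 in TG6 and 368, 378 and 385 in OT-1. The groups did not overlap at the early and late stages, and in mature cells only TG6 replicate 3 reached the OT-1 range. The log2 fold changes were 0.55, 0.68 and 0.58 (SEs 0.18, 0.20 and 0.18, limma's adjusted p = 0.0262, 0.0228 and 0.0424).

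Between OT-1 and F5, a line of intermediate self-reactivity, the share of members called higher was above that of all genes at the late and mature stages but not at the early stage. At early positive selection 5 members were called higher (6.49%; 7.81% of all genes) and Mrpl24 was called lower (1.30%; 4.88% of all genes), a share near that of all genes. The median log2 fold change was 0.21, and the groups did not overlap for 35 members higher (20.2% of all genes) and 3 lower (15.9%). The 5, all large subunit proteins except Mrps16, were Mrpl36, Mrpl52, Mrps16, Mrpl30 and Mrpl4, with log2 fold changes of 0.51, 0.50, 0.47, 0.38 and 0.35 (SEs 0.16, 0.15, 0.14, 0.11 and 0.10, limma's adjusted p = 0.0432, 0.0263, 0.0233, 0.026 and 0.0252). Without F5 early replicate 1, 2 or 3 the higher count was 2, 0 and 1, and without OT-1 early replicate 1 or 2 it was 1 and 0, while 5.09 to 7.21% of all genes were called higher without a library. At late positive selection 20 were called higher (26.0%; 13.6% of all genes) and 2 lower (2.60%; 10.4% of all genes), with a median of 0.31. The groups did not overlap for 36 members higher (19.7% of all genes) and 3 lower (16.9%). Mrpl17 led again, with 182, 134 and 108 normalized counts in F5 against 302, 291 and 295 in OT-1 (log2 fold change 1.10, SE 0.20, limma's adjusted p = 0.000391). Next were Mrpl16, a core protein of the large subunit near the peptidyl transferase centre (log2 fold change 0.78, SE 0.20, limma's adjusted p = 0.00589), and the mitochondria-specific Mrpl51 (log2 fold change 0.77, SE 0.23, limma's adjusted p = 0.0192). In F5 all libraries of Mrpl16 (124, 145 and 117) lay below those of OT-1 (190 to 247). At the late stage, 3 of 4 myeloid genes tested passed the test against F5, each higher in OT-1 (median log2 fold change 2.64; sums of 27.9 to 74.8 and 3.11 to 12.3), as were 5 of 20 cell division genes (median 1.44) and 1 of 5 sort markers, while 3 sort markers and 3 of 6 thymocyte identity genes were lower, and their part in the members' result was not tested. The late count was 11 and 9 without F5 late replicate 2 or 3 (14.3% and 11.7%, against 11.4% and 9.82% of all genes), 13 without OT-1 late replicate 1 (16.9%; 10.1% of all genes) and 11 without OT-1 late replicate 3 (14.3%; 11.5% of all genes).

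For the mature stage, 26 members were called higher in OT-1 than in F5 (33.8%; 13.3% of all genes) and 2 lower (2.60%; 10.1% of all genes), with 70 positive and a median of 0.36. The groups did not overlap for 45 members higher (21.9% of all genes) and 1 lower (16.8%). None of the 20 cell division genes was called in this comparison, but all 20 were positive (median log2 fold change 1.13). Of 4 myeloid genes tested 1 was called higher, while 2 of 5 sort markers and 2 of 6 thymocyte identity genes were called lower. The part of these lists in the members' result was not tested. Mrpl51 had 295, 591 and 450 normalized counts in F5 and 699, 743 and 848 in OT-1 (log2 fold change 0.83, SE 0.23, limma's adjusted p = 0.0134). Mrps16 had 352, 394 and 306 in F5 and 570, 592 and 564 in OT-1 (log2 fold change 0.72, SE 0.13, limma's adjusted p = 0.000667). The groups of both genes did not overlap, and F5 replicate 2, the library with the highest division sum in its group, was the highest F5 library for each. The members lower in OT-1 were Mrpl24 and Mrps6. The higher count was 10 and 11 without F5 mature CD8SP replicate 1 or 3 (9.93% and 8.25% of all genes), 15, 14 and 16 without OT-1 replicate 1, 2 or 3 (9.52, 8.86 and 10.6% of all genes), and 13 with equal library totals (8.32% of all genes, with 15.9% lower).

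Few members passed the test between F5 and TG6. Against TG6, 1 member was called higher in F5 at early positive selection (1.30%; 3.12% of all genes), Mrps6, and none lower (3.35% of all genes). At late positive selection limma called no member, with 3 at an unadjusted p under 0.05 and backgrounds of 1.75% higher and 3.23% lower. In mature CD8SP cells 1 was called lower (1.30%; 4.50% of all genes) and none higher (2.14% of all genes). That member was Mrpl30, a large subunit protein, at 836, 735 and 923 in TG6 and 631, 679 and 600 in F5 (log2 fold change −0.38, SE 0.11, limma's adjusted p = 0.0395). Median log2 fold changes were 0.14, 0.02 and −0.12 at the 3 stages, and without TG6 mature CD8SP replicate 3 the mature median was 0.05, with 50 of 77 members positive in place of 18. The groups did not overlap for 27 members higher in F5 and 0 lower at the early stage (17.0% and 14.2% of all genes), for 10 and 5 at the late stage (17.8% and 15.5%) and for 0 and 5 in mature cells (6.65% and 10.2%). The call of Mrps6 was lost without TG6 early replicate 2 or F5 early replicate 1 or 2, and that of Mrpl30 without TG6 mature CD8SP replicate 1 or 3 or F5 mature CD8SP replicate 1 or 3. Without F5 late replicate 2, 1 member was called at late positive selection.

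At early positive selection 52 of 77 members followed the order of self-reactivity, with OT-1 above F5 above TG6, compared with 24.8% of all genes tested. At late positive selection 33 members did (20.1% of all genes) and in mature CD8SP cells 8 (12.6% of all genes). OT-1 was the highest line for 63, 61 and 65 members at the 3 stages (38.9, 38.3 and 37.5% of all genes). TG6 was lowest for 62 members at early positive selection (35.6% of all genes) and for 10 in mature CD8SP cells (22.9%), where F5 was lowest for 61 (37.2%). The mature order turned on TG6 replicate 3. Without that library, a check chosen after seeing the data, TG6 was lowest for 49 members in mature cells (33.0% of all genes) and F5 for 24 (27.7%), and 45 followed the order of self-reactivity (22.0%). These orders are of means, and most neighbouring groups did not differ by the test above.

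Across maturation, most members had their lowest mean at late positive selection. This held in all 3 lines at once for 49 of 77 members (63.6%, against 16.5% of all genes), and for 47 without TG6 mature CD8SP replicate 3 (15.0% of all genes). From early to late positive selection, 10 members were called lower in TG6 (13.0%; 13.3% of all genes), 20 in F5 (26.0%; 14.0% of all genes) and 16 in OT-1 (20.8%; 14.0% of all genes), so that the TG6 share was that of all genes. Members called higher were 2 in TG6 (2.60%; 12.1% of all genes) and none in F5 or OT-1 (12.7% of all genes in each). All members had a mean of at least 50 normalized counts over the libraries. Among genes with such a mean, 17.2, 18.9 and 19.0% were called lower in TG6, F5 and OT-1. In those fits 13, 28 and 18 members were called in either direction. Median log2 fold changes were −0.24, −0.33 and −0.23, with 64, 73 and 66 members negative. Late and early libraries did not overlap for 39 members lower and 6 higher in TG6 (29.2% and 26.2% of all genes), 39 and 1 in F5 (20.4% and 20.0%) and 37 and 3 in OT-1 (22.1% in each direction).

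Mrpl51 fell most at this step in each line. In F5 it went from 569, 564 and 591 to 160, 212 and 216 normalized counts (log2 fold change −1.56, SE 0.23, limma's adjusted p = 2.75e-05). In OT-1 it went from 641, 687 and 781 to 389, 260 and 361 (log2 fold change −1.08, SE 0.23, limma's adjusted p = 0.00142). In TG6 it went from 426, 509 and 530 to 270 in both libraries (log2 fold change −0.85, SE 0.26, limma's adjusted p = 0.0189). No late library reached an early library of its line. In all 3 lines, 5 members were called lower (6.49%, a share near the 7.09% of all genes). Besides Mrpl51 and Mrps36 they were Mrps12, homologue of the protein of the bacterial decoding centre, Mrps14 and the mitochondria-specific Mrps33. In F5 the next were Mrps36 (log2 fold change −1.12, SE 0.18, limma's adjusted p = 5.86e-05) and Mrpl17 (log2 fold change −0.96, SE 0.20, limma's adjusted p = 0.00111), which went from 295, 245 and 272 to 182, 134 and 108. In OT-1 the same gene had 301, 283 and 319 at the early and 302, 291 and 295 at the late stage. Mrps25 (log2 fold change −0.70, SE 0.21, limma's adjusted p = 0.014) and Mrpl20 (log2 fold change −0.70, SE 0.16, limma's adjusted p = 0.00258) were next in OT-1. Of the 6576 exon bases of Mrps25, 4590 overlap exons of Nr2c2 on the opposite strand, so part of its counts may belong to that gene.
The TG6 count of lower members was 2 without TG6 early replicate 3 (10.4% of all genes) and 1 without TG6 late replicate 1 or 2 (8.87% and 8.36%). In F5, 13 were called lower without F5 early replicate 2 and without F5 late replicate 3 (16.9%; 11.1% of all genes in each), and in OT-1 7 without OT-1 early replicate 3 and 9 without OT-1 late replicate 2 (9.09% and 11.7%, near the 10.5% of all genes in each). With the replicate number as a block, since same-numbered F5 libraries deviated together, 37 members were called lower in F5 (18.1% of all genes).

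From late positive selection to mature CD8SP cells, 37 members were called higher in TG6 (48.1%; 14.5% of all genes), 21 in F5 (27.3%; 12.2% of all genes) and 35 in OT-1 (45.5%; 14.0% of all genes). None was called lower in any line (7.79, 8.31 and 10.4% of all genes). The median log2 fold changes were 0.51, 0.36 and 0.41, with 75, 70 and 73 members positive. Mature and late libraries did not overlap for 57 members higher and 2 lower in TG6 (26.6% and 22.5% of all genes), 35 and 0 in F5 (16.6% and 13.8%) and 55 and 1 in OT-1 (23.3% and 20.1%). In TG6 the largest rise was that of Mrpl17, from 158 and 124 to 354, 274 and 495 normalized counts (log2 fold change 1.37, SE 0.23, limma's adjusted p = 0.000159). It was followed by Mrpl12 (log2 fold change 1.12, SE 0.23, limma's adjusted p = 0.00129), from 442 and 401 to 698, 756 and 1459. The mature TG6 libraries all lay above the late ones for both genes. Mrpl51 rose in TG6, F5 and OT-1 by 1.06, 1.14 and 1.2 on the log2 scale (SEs 0.26, 0.23 and 0.23, limma's adjusted p = 0.00488, 0.00107 and 0.000747). In OT-1 the next were Mrpl42, from 362, 293 and 402 to 662, 658 and 690 (log2 fold change 0.94, SE 0.18, limma's adjusted p = 0.000848), and Mrpl47 (log2 fold change 0.90, SE 0.27, limma's adjusted p = 0.0191). In F5 they were Mrpl17 (log2 fold change 0.98, SE 0.20, limma's adjusted p = 0.00135) and Mrps36 (log2 fold change 0.94, SE 0.18, limma's adjusted p = 0.000547).

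In all 3 lines, 13 members were called higher at this step (16.9%; 6.56% of all genes), and Mrpl51, Mrps12 and Mrps36 were called at both steps in every line (3.90%, near the 2.85% of all genes). The net change over both steps differed in count: the mature mean was above the early mean for 69 members in TG6, 63 in OT-1 and 38 in F5, against 49.2, 49.0 and 49.3% of all genes. Without TG6 mature CD8SP replicate 3, the TG6 count was 45 (48.1% of all genes). At the same steps, all 20 cell division genes were called lower and then higher in every line, with medians of −5.75 and 4.97 in TG6, −5.79 and 4.49 in F5 and −4.05 and 4 in OT-1, and their part in the members' changes was not tested. Fewer members were called higher in TG6 without its late replicate 1 (19; 9.08% of all genes), late replicate 2 (15; 8.17%) or mature CD8SP replicate 3 (17; 11.2%), and 23 with equal library totals, under which 1 was called lower (11.7% and 11.8% of all genes). In F5 the count was 11 and 13 without F5 late replicate 2 or 3 (14.3% and 16.9%, against 10.4% and 8.80% of all genes) and 10 without F5 mature CD8SP replicate 2 (13.0%; 8.47% of all genes). In OT-1 it was 21 without OT-1 late replicate 2 and 23 without OT-1 mature CD8SP replicate 1 (10.4% and 11.1% of all genes). In fits of only the 2 groups compared, limma called 0 members higher in TG6 and 2 in F5 (2.86% and 4.85% of all genes). With the replicate number as a block, 39 were called higher in F5 (16.1% of all genes).

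**Figure D4:**
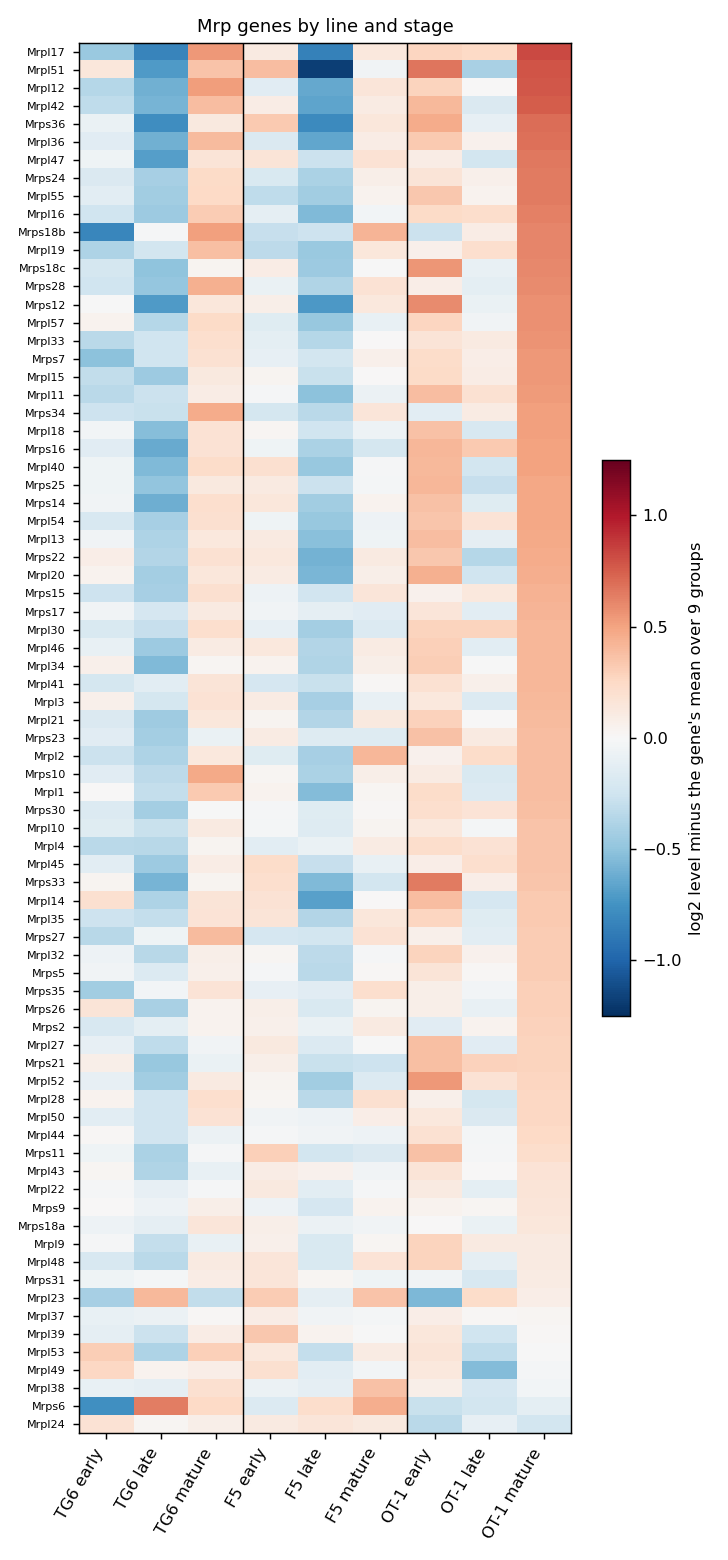
Mean log2 level of each of the 77 members (rows) in each of the 9 groups (columns), minus the gene's mean over the groups, ordered by the value in OT-1 mature CD8SP cells. Most rows are blue at the late stage of TG6 and F5 and red in OT-1 mature cells, while Mrps6 and Mrpl24 at the bottom run the other way.

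Over the 9 group means, the correlation of a member with the median of the other members had a median of 0.87, was over 0.5 for 69 genes (89.6%) and was below 0 for 3, Mrpl24, Mrps6 and Mrpl23. For the 16295 other genes tested, the correlation with the median of the members had a median of −0.06 and was over 0.5 for 25.1%. These values describe 9 points that share scaling and libraries. The range of group means of a member was 0.18 to 1.96 on the log2 scale, with a median of 0.85. Mrpl23 had the lowest level per kilobase, at 26.4 to 136 normalized counts in a library, and was called in no comparison between lines or stages.

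Mrpl24 and Mrps6 were each called against the sign of the members' median in more than 1 comparison, and Mrpl49 and Mrps18b in 1 each. Mrpl24 lay at 1200 to 2050 normalized counts in all libraries and was called lower in OT-1 than in TG6 at the early and mature stages and lower in OT-1 than in F5 at all 3 stages, with log2 fold changes of −0.45, −0.25 and −0.35 (SE 0.09 in each, limma's adjusted p = 0.00138, 0.0427 and 0.00736). The late call was kept in 7 of 14 alternatives, with limma's adjusted p up to 0.186. In mature CD8SP cells it had 1779, 1791 and 1595 in TG6 and 1412, 1405 and 1380 in OT-1, and the groups did not overlap (log2 fold change −0.30, SE 0.09, limma's adjusted p = 0.037), a call kept in 6 of 14 alternatives with limma's adjusted p up to 0.207. It was called at no step between stages. Its exons share 594 bases with Rrnad1 on the opposite strand.

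Mrps6, homologue of the bacterial S6 protein that pairs with S18 on the platform of the small subunit, lies on chromosome 16 at 92058270 to 92112227. It had 143, 136 and 139 normalized counts in the early TG6 libraries, 344 and 399 in the late ones and 290, 265 and 290 in mature CD8SP cells. The late libraries were the highest, and the rise from the early stage was 1.41 on the log2 scale (SE 0.17, limma's adjusted p = 2.08e-06), at a step where the other members mostly had negative values. In OT-1 the values stayed within 182 to 271 in all 9 libraries. OT-1 was thus above TG6 at the early stage (log2 fold change 0.49, SE 0.15, limma's adjusted p = 0.0207) and below it at the late stage (log2 fold change −0.87, SE 0.17, limma's adjusted p = 0.00127). F5 was between 195 and 224 at the early stage, above every TG6 library (log2 fold change 0.59, SE 0.15, limma's adjusted p = 0.0212). Against F5, OT-1 was lower at the late stage (log2 fold change −0.45, SE 0.15, limma's adjusted p = 0.0372; kept in 7 of 14 alternatives, with limma's adjusted p up to 0.119) and in mature CD8SP cells (log2 fold change −0.57, SE 0.15, limma's adjusted p = 0.0108). Exons of Mrps6 overlap those of Slc5a3 and Gm49711 on the same strand, by up to 305 bases, so part of its counts may belong to these genes.

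Whether OT-1 and TG6 differed by another amount at the early stage than in mature CD8SP cells was tested as an interaction. Mrps6 was the member called (1.30%; 2.91% of all genes were called higher and 1.28% lower), with a log2 difference of 0.85 (SE 0.22, limma's adjusted p = 0.0245). Over 20 alternatives the adjusted p ran from 0.008 to 0.0821 and 14 kept the call. It was lost without TG6 early replicate 2, TG6 mature CD8SP replicate 1, OT-1 early replicate 3 or OT-1 mature CD8SP replicate 1 or 2. The median interaction of the members was 0.10 with all libraries and −0.08 without TG6 mature CD8SP replicate 3.

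**Figure D5:**
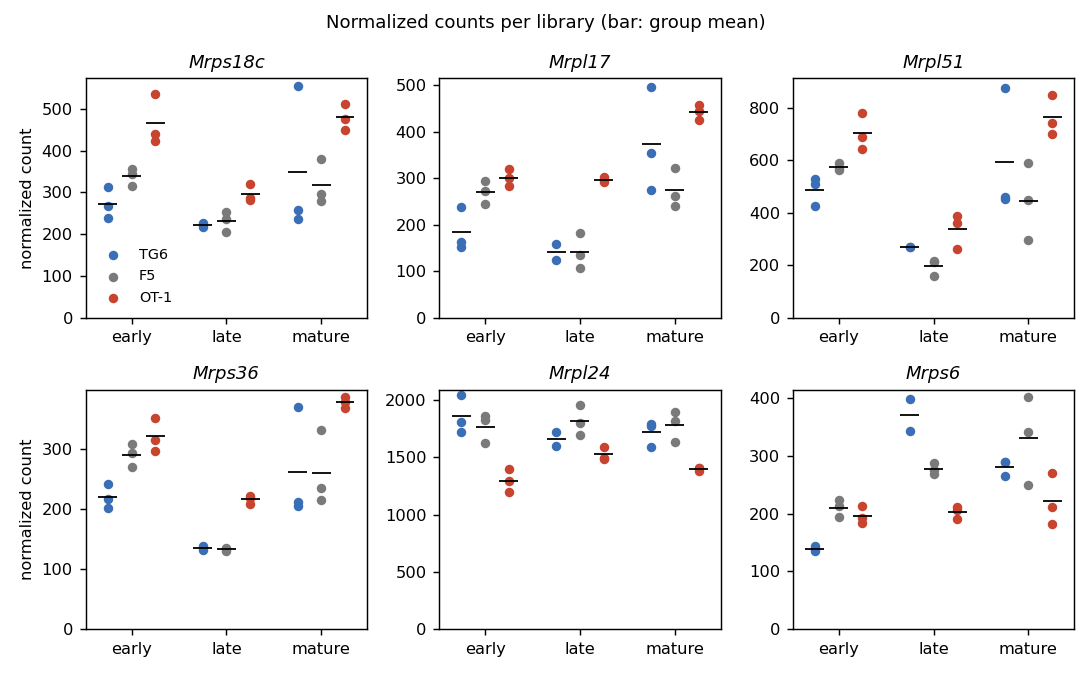
Normalized counts (y axis) of 6 members in each library by line and stage (x axis), with points for libraries and bars for group means. Mrps18c, Mrpl17, Mrpl51 and Mrps36 are lowest at the late stage in most lines, Mrpl24 is lowest in OT-1, and Mrps6 is lowest in TG6 at the early stage (136 to 143).

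The mitoribosome holds 3 proteins of the S18 family, 2 of them known in the small subunit (Mrps18b, Mrps18c) and 1 in the large (Mrps18a), and the symbols share no common course here. Mrps18a had 376 to 576 normalized counts over all libraries and was called in no comparison, with log2 fold changes of 0.06, 0.03 and −0.01 for OT-1 against TG6 at the 3 stages (SEs 0.12, 0.13 and 0.12). Mrps18b had 184, 168 and 199 in the early TG6 libraries and 331 and 309 in the late ones (log2 fold change 0.80, SE 0.21, limma's adjusted p = 0.00577), a step at which Mrps18c had a log2 fold change of −0.29 (SE 0.24, limma's adjusted p = 0.444). Mrps18b was also called higher in OT-1 at the early stage, compared with TG6, (log2 fold change 0.55, SE 0.18, limma's adjusted p = 0.03), where OT-1 had 234, 312 and 267. F5 against TG6 gave 0.53 for Mrps18b at this stage (SE 0.18, limma's adjusted p = 0.0956), and −0.24 and −0.08 at the late and mature stages. Mrps18b lies on chromosome 17 at 35910379 to 35916389. TG6 also differs from F5 and OT-1 in MHC background, and the part of that difference in these values was not tested. Mrps30, which carries a small subunit symbol but is a large subunit protein, had 444 to 1013 in all libraries and was called in no comparison. In OT-1 against TG6 its log2 fold changes were 0.38, 0.60 and 0.38 (SEs 0.24, 0.27 and 0.24, limma's adjusted p = 0.261, 0.142 and 0.336). In all, 16 of the 77 members were called in no comparison (20.8%, against 32.9% of all genes).

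Other genes of mitochondrial gene expression gave a mixed picture in OT-1 against TG6 at early positive selection, where 15.4% of all genes were called higher and 12.4% lower. Of 6 mitoribosomal subunit genes with other names, 2 were called higher, Chchd1 (log2 fold change 0.50, SE 0.19, limma's adjusted p = 0.0476) and Aurkaip1 (log2 fold change 0.45, SE 0.14, limma's adjusted p = 0.0196), and none lower, with a median of 0.31. Of 25 mitoribosome assembly factors, 3 were called higher and 1 lower, with a median of −0.06. Tfb1m, an rRNA methyltransferase, had a log2 fold change of 0.57, the RNA-binding Fastkd2 0.51 and Mterf3 −0.43 (SEs 0.19, 0.17 and 0.15, limma's adjusted p = 0.0279, 0.0343 and 0.0341). Of 13 translation factors, 4 were called higher and 1 lower, with Mrrf, the ribosome recycling factor, at 0.75 and Tufm, the elongation factor Tu, at 0.61, while Mtfmt, which formylates the initiator tRNA, was at −0.43 (SEs 0.22, 0.15 and 0.15, limma's adjusted p = 0.0143, 0.00464 and 0.0377). Of 17 mitochondrial tRNA synthetases, 1 was called higher (Lars2, 1.12) and 3 lower, led by Vars2 at −2.06 and Mars2 at −0.91 (SEs 0.36, 0.14 and 0.16, limma's adjusted p = 0.0245, 7.27e-10 and 0.000223). Of 12 genes for mitochondrial DNA and transcription, 1 was called higher (Slirp, 0.87) and 3 lower, led by Polg, the DNA polymerase, at −0.96 and Mterf1a at −0.82 (SEs 0.28, 0.32 and 0.21, limma's adjusted p = 0.0259, 0.0268 and 0.00567).

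The RNAs of the organelle itself were measured as well. Of 13 mitochondrially encoded mRNAs, 8 were called higher in OT-1 at the early stage and none lower (median log2 fold change 0.64), led by mt-Nd6 (1.26) and mt-Nd5 (1.17), subunits of complex I (SEs 0.33 and 0.31, limma's adjusted p = 0.00639 and 0.00776). At late positive selection 8 were called higher and in mature CD8SP cells none, or 1 without TG6 replicate 3 (a check chosen after seeing the data, as are those on this library that follow). Of the 2 mitochondrial rRNAs, mt-Rnr1, that of the small subunit, was called higher at the early stage (log2 fold change 1.03, SE 0.17, limma's adjusted p = 0.000112). Proteins of the cytosolic ribosome, of which 83 were tested, were called higher in OT-1 for 76, 74 and 6 genes at the 3 stages, with medians of 0.82, 0.78 and 0.14, and in mature CD8SP cells for 28 (median 0.21) without TG6 replicate 3. From early to late positive selection they were called higher for 34, 25 and 39 genes in TG6, F5 and OT-1 and lower for 2, 1 and 1, whereas mitochondrial ribosomal protein genes had negative medians at that step. In the interaction, 70 cytosolic ribosomal protein genes (69 without that library) and 1 mitochondrial ribosomal protein gene were called.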

How the data were processed

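RNA from sorted thymocytes was sequenced in 26 libraries. Per the labels and methods, the authors trimmed reads with Trimmomatic 0.32, aligned to mm10 with Bowtie2 2.3.2, counted with RSEM 1.2.31 and scaled the counts with DESeq2. The deposited signal is therefore normalized counts per gene symbol, comparable between libraries but not per length. Totals per library ran from 16134786 to 18944173. Symbols at 10 or more in at least 2 libraries were tested (16372). Values as log2(value + 1) were fitted with limma 3.58.1 in R 4.3.3, with a prior variance following mean expression, one mean per group over all 9 groups and Benjamini-Hochberg adjustment within each comparison; fold changes are on that scale and understate changes of low genes. The script was tested on simulated data. Libraries were grouped by GEO labels; whether they are separate mice is labelled by replicate only, so p-values measure the spread between libraries.

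Members and gene lists were chosen with earlier results of these data known. Genes with values in the text are the 3 highest and 3 lowest per kilobase, the 3 largest called per direction in each comparison, called members of a direction with at most 5, the Mrps18 family, Mrps30, Mrps36, interaction calls and, per pathway list, up to 2 called genes per direction. Members counted in sets of 5 or fewer over lines or stages, and the extra values of Mrpl12 and Mrpl17, were chosen after their values were seen. Same-numbered libraries of F5 deviated together (9 pairs, correlations of 0.215 to 0.551, all over 0.1), so a fit with the replicate number as a block is given for F5; that equal numbers are the same mouse is assumed, not stated. In TG6, 3 of 7 pairs and in OT-1 8 of 9 were over 0.1. Alternatives were other pseudocounts and filters, scaling to equal totals, no trend, only the groups compared, a replicate block and leaving out each library. Exon lengths came from GENCODE vM21 and promoters from RefSeq. The methods give ages as ranges by kind of experiment, and ages of individual mice and the strand setting are not given in the sources used here. One marker list of another cell type is not reported here.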

Additional observations from a re-analysis of the deposited data

Results flagged for a closer look

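The difference between OT-1 and TG6 in Mrps6 changed from early positive selection to mature CD8SP cells by 0.854 on the log2 scale (limma interaction, adjusted p = 0.0245). For the following genes every library of one group moved one way and every library of the other the opposite way, and these differences were not tested. Mrps6 had log2 fold changes of 0.491 at the early and −0.865 at the late stage in OT-1 against TG6, and of 0.591 and −0.417 in F5 against TG6. From early to late positive selection, Mrpl24 had −0.162 in TG6 and 0.236 in OT-1, and Mrps27 had 0.292 in TG6 and −0.194 in OT-1. In F5 against TG6, Mrpl42 had 0.409 at the early and −0.0819 at the late stage, Mrpl51 had 0.241 and −0.473 at the same stages, and Mrps16 had 0.228 at the late stage and −0.399 in mature CD8SP cells. Groups of 2 or 3 libraries are too small for the formal outlier check, which was not run.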

How the results depend on the processing

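Counts are members called in either direction, and the cause of each move was not tested. Percentages in parentheses are the share of all genes called in the same fits. With a pseudocount of 0.1, F5 against TG6 gave 2 at the early stage (6.11%). Without a filter, OT-1 against TG6 gave 12 at the late stage and 0 in mature CD8SP cells (7.65% and 4.72%), and F5 against TG6 gave 0 in mature cells (3.51%). With a mean of at least 50, F5 against TG6 gave 2 at the early and 1 at the late stage (7.84% and 5.86%). All members pass this filter, under which larger shares of all genes were called. In OT-1 against TG6 it gave 30, 20 and 4, with 20.9, 13.2 and 6.77% of all genes called higher. In OT-1 against F5 it gave 7, 26 and 30, with 10.4, 17.7 and 18.3% called higher. Late to mature it gave 42, 26 and 37 in TG6, F5 and OT-1, with 20.5, 16.7 and 20.2% called higher. With equal library totals, OT-1 against TG6 gave 17, 9 and 1 at the 3 stages (28.9, 17.1 and 10.3%), OT-1 against F5 2 at the early stage and 16 in mature cells (14.1% and 24.2%), F5 against TG6 2 at the early stage and 0 in mature cells (6.65% and 6.74%), and late to mature in TG6 24 (23.5%). Without the trend, OT-1 against TG6 gave 2 in mature cells (8.50%). In fits of only the groups compared, OT-1 against TG6 gave 0 in mature cells (1.65%), OT-1 against F5 14, 11 and 18 (14.3, 16.2 and 15.4%), F5 against TG6 3 at the early stage and 0 in mature cells (10.2% and 2.11%), late to mature 0 in TG6 and 2 in F5 (3.85% and 7.61%), and the interaction 0 (2.94%).

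Leaving out 1 library at a time gave 15 to 33 (early; 19.7 to 24.3%), 4 to 14 (late; 6.72 to 13.3%) and 0 to 42 (mature; 4.48 to 27.2%) in OT-1 against TG6. In OT-1 against F5 it gave 1 to 4 (7.83 to 11.6%), 9 to 27 (16.9 to 25.1%) and 13 to 33 (13.9 to 24.6%), and in F5 against TG6 0 to 1 at each stage (2.29 to 8.62%). Early to late gave 2 to 11 in TG6 (16.1 to 21.9%), 13 to 29 in F5 (21.0 to 24.5%) and 7 to 15 in OT-1 (20.0 to 23.7%). Late to mature gave 15 to 45 (11.5 to 24.4%), 10 to 30 (13.8 to 20.2%) and 21 to 27 (17.5 to 20.7%), and the interaction 0 to 1 (3.02 to 7.04%). Where TG6 late positive selection was left with 1 library, that library was assumed to vary like the other groups.

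With the replicate number within a line as a replicate block, early to late in F5 gave 38 and late to mature 39 (35.6% and 29.3%). This block gave 4 higher and 8 lower for early to late in TG6 (13.7% and 14.0%) and 28 higher for late to mature (15.0%). In OT-1 it gave 2 higher and 21 lower (17.3% and 18.3%), then 45 higher (18.8%). In both lines fewer than all pairs of equal number deviated together. The block by number across lines gave 31 higher and 1 lower (16.0% and 13.0%), 13 and 2 (9.72% and 6.86%), and 2 and 1 (4.91% and 5.36%) in OT-1 against TG6. It changed no count between lines by over 1.5 times.

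Of 721 alternative values of 52 results for named members, 579 kept the call, 142 lost it and 0 reversed. With 2 or 3 libraries per group, small differences cannot be seen.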
